A study of Mus musculus with 6 samples.

Results

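The Gimap genes form a cluster on mouse chromosome 6 that encodes the GTPases of immunity-associated proteins. The 8 members were taken by symbol (Gimap1, Gimap3, Gimap4, Gimap5, Gimap6, Gimap7, Gimap8 and Gimap9) from the 24063 gene symbols listed in the count files, and 0 other symbols beginning with Gimap were listed. All 8 passed the filter on low counts. RNA had been sequenced from LSK cells, the lineage-negative, Sca-1-positive, c-Kit-positive fraction of bone marrow that holds blood stem cells and early progenitors. Asxl2 encodes a chromatin regulator of the Polycomb group that partners the deubiquitinase Bap1.

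One group comprised 3 mice with a genotype labelled Asxl2-/-, which per the methods carried floxed Asxl2 alleles and an Mx1-cre transgene. The control group comprised 3 mice labelled wild type, which also carried Mx1-cre. Animals of both groups were of the C57BL/6 strain and had received pIpC, a double-stranded RNA mimic that provokes an interferon response. Per the paper, the LSK cells were taken 4 weeks after pIpC was given. The Mx1 promoter that drives Cre responds to interferon and acts in blood cells and in other tissues, so deletion need not have been confined to LSK cells, and both groups had met the same inducer. The labels gave neither age nor sex. All 3 Asxl2-/- libraries held at most 2 counts of each of 4 Y-linked genes and at least 49540 counts of Xist, whereas each control library held at least 1026 counts of each Y-linked gene and at most 3194 of Xist. Genotype and sex therefore cannot be told apart in any comparison below.

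The proteins of this family share a GTP-binding domain of the AIG1 type and are found mainly in lymphocytes, where several sit on intracellular membranes. They are best known for their part in lymphocyte survival. Loss of Gimap5 causes a severe lack of T cells in rats and mice, loss of Gimap1 depletes mature T and B cells, and GIMAP6 binds the autophagy protein GABARAPL2. Gimap3 is a close relative of Gimap5, Gimap4 has been linked to the speed of T-cell death, Gimap7 can pair with other family members, and Gimap8 is unusual in carrying several GTP-binding domains. Less is known of Gimap9.

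The deposited counts came in 2 kinds of file. Asxl2-/- replicates 1 and 3 and control replicate 2 had 1 count per transcript (gene-count files). Asxl2-/- replicate 2 and control replicates 1 and 3 had 1 count per exon (exon-count files), and in their sums a read across a splice junction can count more than once. Levels are therefore compared only within a kind of file, and every fitted difference carries the kind of file as a covariate. Counts assigned to genes totalled 25528540 to 29136012 in the gene-count files and 53147729 to 55032075 in the exon-count files. Asxl2 itself had 3533 and 4213 counts in the gene-count Asxl2-/- libraries beside 3543 in the control, and 4804 in the exon-count Asxl2-/- library beside 4433 and 4105. Its fitted log2 difference over the whole gene was 0.11 ± 0.095 (SE, edgeR adjusted p = 0.469). The floxed exon 11 can be seen only in exon-count files, where it held 28 of 4804 Asxl2 counts in Asxl2-/- replicate 2, 457 of 4433 in control replicate 1 and 492 of 4105 in control replicate 3. The gene-count files do not resolve that exon, so the labels of the other 3 libraries could not be checked in this way. Kit counts were at least 8060 and Ly6a (Sca-1) counts at least 1483 in every library, so both positive markers of the sort were present. Itgam, a myeloid gene of the excluded lineages, was not at 0, with 575 to 1729 counts.

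The cluster spans 123.6 kb (mm10, chr6:48647234-48770851), and 0 other genes with a unique position lie between its ends. In order along the chromosome it holds Gimap8, Gimap9, Gimap4, Gimap6, Gimap7, Gimap1, Gimap5 and Gimap3. Gimap6 and Gimap3 are on the minus strand and the others on the plus strand. The chosen transcripts had 2 exons (Gimap9, Gimap7) to 6 exons (Gimap8) and exonic lengths from 1269 bases (Gimap7) to 3654 bases (Gimap8). No base of the 27 exons was shared with an exon of another gene symbol.

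The 250 bases before the start of 4 members are shown, read from RefSeq (GRCm38.p6) and written 5′ to 3′ on the strand of the gene. Gimap6 and Gimap5 are shown as members with higher counts in the gene-count Asxl2-/- libraries, Gimap1 as a member of that kind with a different motif, and Gimap9 as the member whose level varied least. Capitals mark ETS cores (GGAAGT, or ACTTCC on the other strand) in Gimap6 and Gimap5 and a RUNX core (TGTGGT, or ACCACA on the other strand) in Gimap1.
Gimap6 (chr6:48708245-48708494, minus strand): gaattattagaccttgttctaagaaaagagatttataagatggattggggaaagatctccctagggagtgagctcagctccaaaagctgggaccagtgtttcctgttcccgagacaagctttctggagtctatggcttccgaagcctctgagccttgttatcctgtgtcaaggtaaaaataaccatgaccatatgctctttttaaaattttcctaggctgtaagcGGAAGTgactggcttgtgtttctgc
Gimap5 (chr6:48745947-48746196, plus strand): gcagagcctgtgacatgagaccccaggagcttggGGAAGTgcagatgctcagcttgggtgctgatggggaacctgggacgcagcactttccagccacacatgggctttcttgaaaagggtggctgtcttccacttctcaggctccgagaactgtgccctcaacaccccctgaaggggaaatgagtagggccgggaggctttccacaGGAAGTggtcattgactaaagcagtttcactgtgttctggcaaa
Gimap1 (chr6:48738797-48739046, plus strand): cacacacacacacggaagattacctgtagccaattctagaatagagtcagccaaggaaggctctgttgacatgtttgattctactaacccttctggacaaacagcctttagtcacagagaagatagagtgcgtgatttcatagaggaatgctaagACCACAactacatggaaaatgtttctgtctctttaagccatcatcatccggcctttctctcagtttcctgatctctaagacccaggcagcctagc
Gimap9 (chr6:48675885-48676134, plus strand): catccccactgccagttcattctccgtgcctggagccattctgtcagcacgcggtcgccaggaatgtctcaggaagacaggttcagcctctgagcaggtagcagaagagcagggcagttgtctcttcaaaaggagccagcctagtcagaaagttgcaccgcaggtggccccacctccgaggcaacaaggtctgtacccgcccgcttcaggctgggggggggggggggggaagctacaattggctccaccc

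RefSeq gave 9 such windows for the 8 members, because Gimap8 has a pair of annotated starts whose windows overlap. An ETS core, the letters recognised by ETS-family factors such as Spi1, was found in Gimap6 (position -25, counted back from the start, with -1 the base before it) and at -216 and -44 in Gimap5. That is 2 of 9 windows, and 19.7% of all 32851 mouse windows of this length held one. A RUNX core, recognised by Runx1 and its relatives, was found on the reverse strand of Gimap1 (-95), Gimap4 (-145) and Gimap7 (-79), which is 3 of 9 windows beside 14.0% of all windows. The AP-1 letters TGANTCA were in 0 of 9 (6.75% of all windows), and the core of an interferon-stimulated element, GAAA followed after 2 bases by a further GAAA, in 0 of 9 (2.98%), each searched on both strands. These matches describe letters only and carry no evidence of binding. By exact match to these letters, the members with an ETS core and those with a RUNX core were different genes, and Gimap8, Gimap9 and Gimap3 had neither. Shorter or variant forms of these sites were not searched.

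Gimap6 was the most abundant member per kilobase in all 6 libraries. In gene-count files its level ran from 17.1 to 50.3 CPM per kilobase (CPM is the count scaled to library size, here after TMM, and the length is that of the exons), with a median of 45.4. The median placed it first, ahead of Gimap9 (19.8), Gimap1 (19.3), Gimap4 (7.60), Gimap5 (6.42), Gimap8 (4.30), Gimap7 (1.998) and Gimap3 (1.23). Of the neighbours in this order, Gimap1 and Gimap4 had ranges that did not overlap, and the 6 other adjoining pairs overlapped. In exon-count files the order was Gimap6 (26.1), Gimap1 (14.8), Gimap9 (12.8), Gimap4 (5.17), Gimap5 (4.33), Gimap8 (2.60), Gimap7 (1.66) and Gimap3 (0.937). There Gimap9 stood clear of Gimap4, Gimap4 of Gimap5, and Gimap5 of Gimap8. Against all genes with counts, the mean level of Gimap6 in gene-count files was at percentile 86.5 and that of Gimap3 at percentile 37.1. The family in LSK cells thus ranged from a well-expressed gene to one below the middle of all genes with counts.

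None of the 8 Gimap genes differed between Asxl2-/- and control LSK cells past the threshold. The edgeR quasi-likelihood test called 0 of 8 at an adjusted p under 0.05, whereas 2.34% of the 14145 genes tested were called (2.04% raised and 0.304% lowered). At an unadjusted p under 0.05 the count was also 0 of 8, with 27.7% of all genes. DESeq2 called 0 of 8 (16.3% of all genes) and limma-voom 0 of 8 (3.04%). The fitted difference was above 0 for 7 of 8 members and 50.1% of all genes, and the median log2 difference of the members was 0.51, beside 0.00 over all genes tested. The spread behind that median was wide, and it differed between members and between the kinds of file.

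Gimap6 had 81.1 and 73.2 CPM in Asxl2-/- replicates 1 and 3 against 27.5 in control replicate 2, and 42.0 CPM in Asxl2-/- replicate 2 against 46.5 and 29.5 in control replicates 1 and 3. Both gene-count Asxl2-/- libraries were thus well above their control, while the exon-count Asxl2-/- library lay between its controls. With the file kind removed, log2 CPM averaged 5.94 ± 0.38 (SD, n = 3) in Asxl2-/- cells and 5.11 ± 0.50 in controls, and the fitted difference was 0.81 ± 0.35 (SE, 95% interval -0.05 to 1.66, edgeR adjusted p = 0.198). These SDs are somewhat too small, as the removal uses the same libraries. Leaving out control replicate 2, the only gene-count control, leaves in effect the exon-count contrast, and the difference was then 0.14 (adjusted p = 0.818). Leaving out Asxl2-/- replicate 2 leaves 2 gene-count Asxl2-/- libraries against that 1 control, which is assumed to vary like the other libraries. The difference was then 1.49 and Gimap6 passed the threshold (adjusted p = 0.0386), as 1 of 8 members and 4.67% of all genes did in that fit. Library and kind of file cannot be told apart in either fit.

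Gimap5, the member tied most closely to T-cell survival, repeated this arrangement. Its CPM was 17.03 and 12.5 in Asxl2-/- replicates 1 and 3 and 5.07 in control replicate 2, and 8.42 in Asxl2-/- replicate 2 against 8.56 and 5.84 in control replicates 1 and 3. The exon-count Asxl2-/- library again fell between the controls, very near the upper one. The fitted log2 difference was 0.87 ± 0.37 (SE, 95% interval -0.03 to 1.76, adjusted p = 0.191).

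Gimap8, with several GTP-binding domains, had 21.9 and 15.7 CPM in Asxl2-/- replicates 1 and 3 and 6.67 in control replicate 2, and 9.49 in Asxl2-/- replicate 2 against 10.2 and 6.03 in control replicates 1 and 3. Its fitted log2 difference was 0.85 ± 0.39 (adjusted p = 0.212). Gimap1 had 40.0 and 29.0 CPM in Asxl2-/- replicates 1 and 3 and 15.8 in control replicate 2, and 22.3 in Asxl2-/- replicate 2 against 28.8 and 18.2 in control replicates 1 and 3, a fitted difference of 0.52 ± 0.35 (adjusted p = 0.367). For both genes the exon-count Asxl2-/- library was inside the range of its controls.

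Gimap3, the scarcest member per kilobase by the median in each kind of file, had between 55 and 136 counts in a library. In Asxl2-/- replicates 1 and 2 Gimap7 was lower per kilobase. The CPM of Gimap3 was 4.83 and 2.64 in the gene-count Asxl2-/- libraries against 1.91 in the control, and 2.01 in the exon-count Asxl2-/- library against 2.46 and 1.35. The fitted difference of 0.51 ± 0.43 was the least precise of the 8, with an interval from -0.53 to 1.56 and an adjusted p of 0.467.

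Gimap9 varied little. Its CPM was 30.2, 27.4 and 23.4 in Asxl2-/- replicate 1, Asxl2-/- replicate 3 and control replicate 2, and 16.9, 17.7 and 17.7 in Asxl2-/- replicate 2 and control replicates 1 and 3. The fitted log2 difference was 0.12 ± 0.13 (95% interval -0.19 to 0.42, adjusted p = 0.576), so a change of the fitted size of Gimap6 lies outside its interval.

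Gimap4 was the only member whose exon-count Asxl2-/- library stood above both of its controls. Its CPM was 14.9 in Asxl2-/- replicate 2 against 8.06 and 9.36 in control replicates 1 and 3, but 14.0 and 13.7 in Asxl2-/- replicates 1 and 3 against 13.2 in control replicate 2. After removal of the file kind the groups did not overlap for Gimap4, the lone member of 8 with that property, whereas 23.6% of all genes were higher in Asxl2-/- cells without overlap and 20.8% lower. Its fitted log2 difference was 0.43 ± 0.19 (adjusted p = 0.198).

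Gimap7 was the exception in direction. Its counts were few, from 60 to 127 in a library. CPM was 2.84 and 2.12 in Asxl2-/- replicates 1 and 3, on either side of the 2.54 in control replicate 2, and 1.15 in Asxl2-/- replicate 2 against 2.44 and 2.11 in control replicates 1 and 3. The exon-count Asxl2-/- library was thus the low one. The fitted log2 difference was -0.51 ± 0.33 (95% interval -1.32 to 0.30, adjusted p = 0.353).

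**Figure D1:**
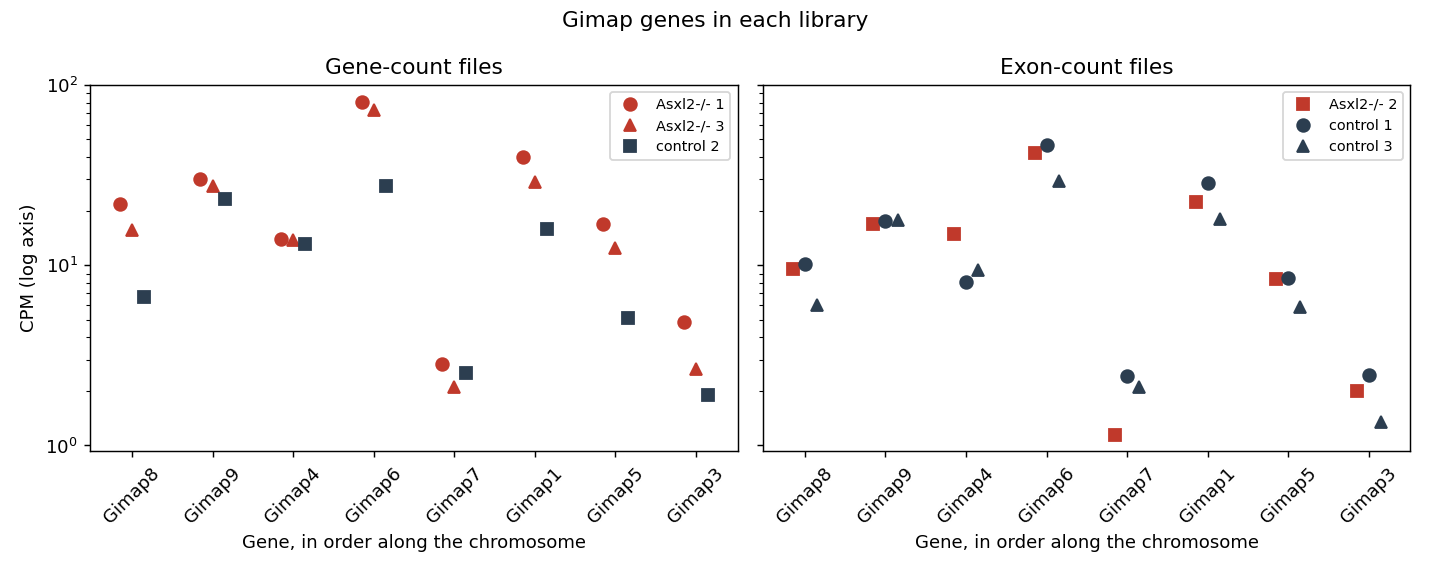
CPM of the 8 Gimap genes on a log axis, in order along the chromosome, with gene-count files in the left panel and exon-count files in the right. Red points are Asxl2-/- libraries, dark points control libraries, and the marker shape gives the replicate number. For Gimap6 the gene-count Asxl2-/- libraries (81.1 and 73.2) sit above the control (27.5), whereas the exon-count Asxl2-/- library (42.0) sits between its controls (46.5 and 29.5).

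Counted over the family, both gene-count Asxl2-/- libraries were above the gene-count control for 7 of 8 members, as were 42.4% of all genes tested. The mean of these libraries was at least 2-fold the control for 4 of 8 (Gimap8, Gimap6, Gimap1 and Gimap5), beside 11.7% of all genes. In the exon-count files the Asxl2-/- library lay between its controls for 5 of 8 members (Gimap8, Gimap6, Gimap1, Gimap5 and Gimap3), beside 22.5% of all genes. It lay above both for 1 of 8 (Gimap4, 39.5% of all genes) and below both for 2 of 8 (Gimap9 and Gimap7, 38.0%). Members of a cluster are not independent of each other, and the gene-count counts all rest on control replicate 2.

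The fold by kind of file made the contrast plain. In gene-count files Asxl2-/- cells had 2.80 times the Gimap6 of control cells, 2.86 times the Gimap5, 2.77 times the Gimap8 and 2.15 times the Gimap1, given as values, since the control is 1 library. In exon-count files, with 1 Asxl2-/- library, the same ratios were 1.13, 1.19, 1.21 and 0.977. For Gimap4 the order was reversed, with 1.05 in gene-count and 1.71 in exon-count files. An interaction of group and file kind was fitted after this pattern had been seen. The gene-count control and the exon-count Asxl2-/- group hold 1 library each in that fit and are assumed to vary like the others. The log2 difference of exon-count from gene-count folds was -1.34 ± 0.38 for Gimap6 (SE, unadjusted p = 0.0092, edgeR adjusted p = 0.249). It had an unadjusted p under 0.05 for 5 of 8 members (11.5% of all genes) and an adjusted p under 0.05 for 0 of 8 (0.099%).

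Libraries of the same genotype and the same kind of file also differed from each other. Control replicate 1 exceeded control replicate 3 by 0.66 log2 CPM for Gimap6, by 0.66 for Gimap1, by 0.76 for Gimap8, by 0.55 for Gimap5 and by 0.84 for Gimap3, whereas the difference was 0.20 for Gimap7, -0.007 for Gimap9 and -0.22 for Gimap4. The median absolute difference of these libraries over all genes tested was 0.200, and 11.6% of all genes differed by more than Gimap6 did. Asxl2-/- replicate 1 exceeded replicate 3 by 0.15 for Gimap6, 0.45 for Gimap5 and 0.86 for Gimap3, beside a median absolute difference of 0.167 over all genes. Against control replicate 1, Asxl2-/- replicate 2 was lower by 0.15 for Gimap6 (a difference of -0.15), whereas against control replicate 3 it was higher by 0.51.

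**Figure D2:**
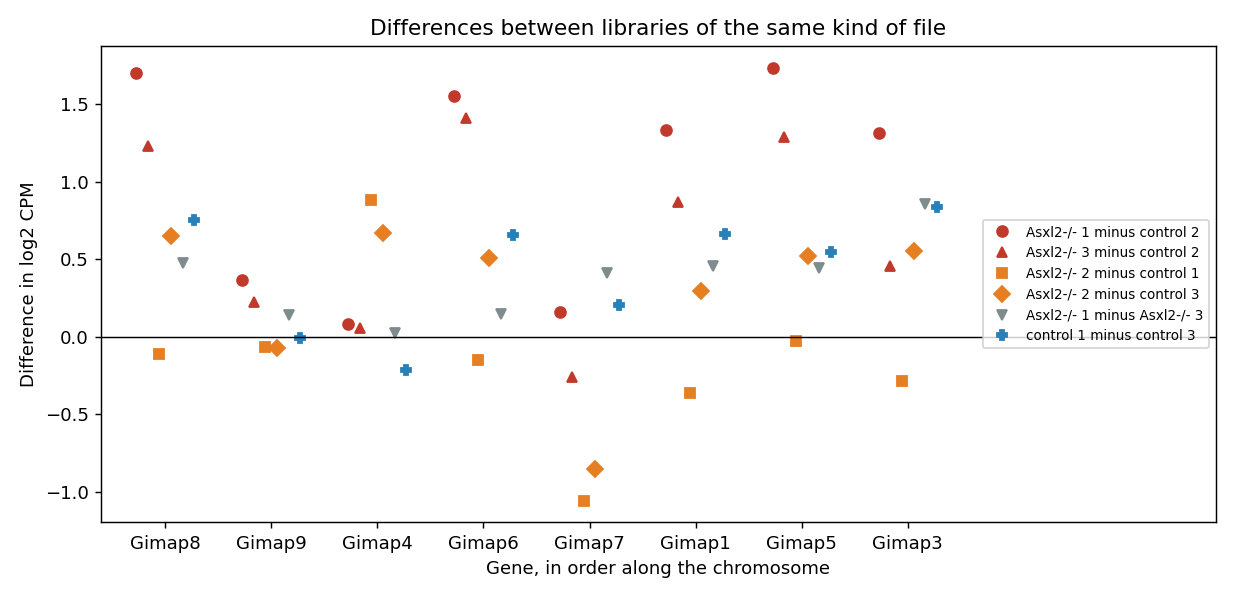
Differences in log2 CPM between pairs of libraries of the same kind of file, for each Gimap gene in order along the chromosome. Red points (gene-count Asxl2-/- minus control replicate 2) reach 1.56 and 1.41 for Gimap6, orange points (exon-count Asxl2-/- replicate 2 minus each control) lie at -0.15 and 0.51, and grey and blue points show pairs of the same genotype, with control 1 minus control 3 at 0.66.

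The members also moved relative to each other. The ratio of Gimap6 to Gimap9 counts within a library, which needs no scaling between libraries, was 2.68, 2.48 and 2.67 in Asxl2-/- replicates 1, 2 and 3. In controls it was 2.63 in replicate 1, 1.18 in replicate 2 and 1.66 in replicate 3. Asxl2-/- libraries of both file kinds thus held nearly the same ratio, control replicate 1 matched them, and the other two controls were lower. The Gimap5 to Gimap9 ratio lay between 0.455 and 0.563 in the Asxl2-/- libraries. It was 0.485 in control replicate 1, 0.217 in control replicate 2 and 0.329 in control replicate 3. Because Gimap6 has 3 exons and Gimap9 has 2, the file kind can still move these ratios. Gimap6 took the largest share of all Gimap counts in every library, from 28.6% in control replicate 2 to 41.5% in Asxl2-/- replicate 3.

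As a description of likeness, each member was correlated over the 6 libraries with the mean of the other members, on log2 CPM with the file kind removed. The coefficient was 0.990 for Gimap1, 0.988 for Gimap8, 0.979 for Gimap5, 0.950 for Gimap6, 0.919 for Gimap3 and 0.876 for Gimap9, but 0.021 for Gimap4 and -0.12 for Gimap7. These points share libraries and depth, and no test was made. Among 11532 other genes with enough counts, those most like the mean of the Gimap genes were Mecom (Pearson r = 0.999), which encodes a stem-cell transcription factor, Lca5 (0.998), Bcam (0.998), Pcdhga12 (0.998) and Rbpms (0.997). Mecom had 26.4 and 18.4 CPM in Asxl2-/- replicates 1 and 3 and 10.2 in control replicate 2, and 19.0 in Asxl2-/- replicate 2 against 21.2 and 14.3 in control replicates 1 and 3. With 6 libraries and 11532 genes, the highest coefficients are chosen from many.

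Exon counts, which exist for 1 Asxl2-/- and 2 control libraries, kept 1 position against the controls over all exons in Gimap1, Gimap4, Gimap6 and Gimap7 and held mixed positions in Gimap8, Gimap9, Gimap5 and Gimap3. Of the 27 exons of the cluster, CPM in Asxl2-/- replicate 2 was between the controls for 17, above both for 6 and below both for 4. All 3 exons of Gimap6 and all 3 of Gimap1 were between the controls, all 3 of Gimap4 above both and both exons of Gimap7 below both. The share of a gene's counts in each exon had a Wilson 95% interval apart from both controls for 0 of 27 exons, so a difference in exon use was not detectable at this depth. These intervals cover counting error only, as reads from PCR are not independent molecules. The last exon of Gimap4, the gene whose exons were all above both controls, held 87.2% of its counts in Asxl2-/- replicate 2 (interval 84.6% to 89.3%), 81.9% in control replicate 1 (77.9% to 85.3%) and 84.7% in control replicate 3 (81.0% to 87.7%). In Gimap6, the middle exon of 85 bases held 359 counts in Asxl2-/- replicate 2 beside 1462 in the exon of 1241 bases, which is 4224 and 1178 counts per kilobase. Junction reads were not measured. For the 3 members with several listed transcripts (Gimap8, Gimap4 and Gimap1), the fold in gene-count files ranged over transcripts from 1.46 to 1.47 on the log2 scale in Gimap8 and from 0.06 to 0.18 in Gimap4.

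The genes on either side of the cluster also had fitted differences mostly above 0, and none passed the threshold. Within 500 kb of its ends lay 21 genes, of which 16 were tested and 0 were called, beside 2.34% of all genes. A fitted difference above 0 was found for 14 (50.1% of all genes), and the median was 0.38 on the log2 scale. At an unadjusted p under 0.05, 5 had a difference above 0 (15% of all genes) and 1 below (12.6%). The smallest p-values belonged to Zfp862-ps (0.84 ± 0.17, adjusted p = 0.0611), Krba1 (0.98 ± 0.20, adjusted p = 0.0653) and AI854703 (0.70 ± 0.22, adjusted p = 0.114). Tmem176b and Tmem176a, which encode membrane proteins of a neighbouring pair, each had a difference of 0.59 (adjusted p = 0.143 and 0.133), and Malsu1 was -0.30 (adjusted p = 0.178). Krba1 had 21.9 and 24.9 CPM in Asxl2-/- replicates 1 and 3 and 9.69 in control replicate 2, and 21.0 in Asxl2-/- replicate 2 against 14.9 and 10.8 in control replicates 1 and 3, so unlike Gimap6 it was above its controls in both kinds of file. Doxl2 and Svs1 had 0 counts in every library.

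**Figure D3:**
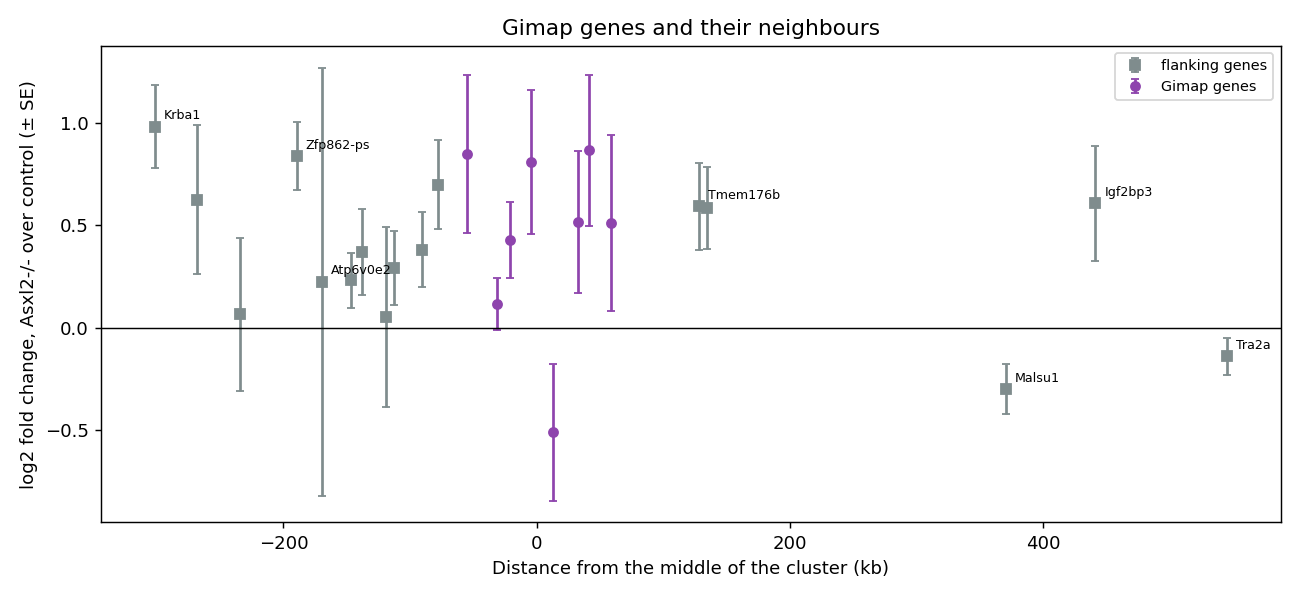
Fitted log2 fold change with its SE for the 8 Gimap genes (purple circles) and the 16 tested genes within 500 kb (grey squares), by distance in kb from the middle of the cluster. Gimap genes span -0.51 (Gimap7) to 0.87 (Gimap5), and Krba1 and Zfp862-ps stand at 0.98 and 0.84.

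Since the Gimap family belongs to lymphocytes, markers of the cell types that could carry it were read beside it. In bulk libraries a change in the number of such cells and a change of RNA per cell cannot be told apart. For T cells, 0 of 19 tested markers were called, beside 2.34% of all genes, and their median log2 difference was 0.04. Their summed CPM ran from 117 to 130 in Asxl2-/- and from 129 to 148 in control libraries. Most of this sum came from Ubash3a and Lat (48.8 and 40.1 of 129 CPM in Asxl2-/- replicate 2, 59.3 and 37.2 of 135 CPM in control replicate 3). Defining T-cell genes were low but not at 0, with 19 to 67 counts of Cd3e. The smallest p-values of this list belonged to Cd8a (-1.08 ± 0.29, adjusted p = 0.0942), Cd4 (1.24 ± 0.54, 0.200) and Ubash3a (-0.18 ± 0.14, 0.422). For NK and innate lymphoid cells 0 of 11 were called, beside 2.34% of all genes. The list median was -0.25, and summed CPM was 118 to 174 in Asxl2-/- and 140 to 197 in control libraries. Gzmb was at -0.85 ± 0.21 (adjusted p = 0.0800), Klrk1 at -2.39 ± 0.65 (0.0957) and Klrb1c at 1.65 ± 0.74 (0.207). Nkg7 alone gave 104 to 156 CPM of the NK sums, whereas Ncr1 had 0 to 4 counts. For B-lineage cells 8 of 14 were raised, beside 2.04% of all genes, and the list median was 1.82. Their summed CPM ran from 201 to 207 in Asxl2-/- libraries and from 48.4 to 73.5 in controls. Cd79a, a chain of the B-cell receptor, rose by 1.84 ± 0.19 (adjusted p = 0.0178), Ebf1, a B-lineage transcription factor, by 2.18 ± 0.23 (0.0183) and Vpreb3 by 1.96 ± 0.22 (0.0196). Without Asxl2-/- replicate 1 or control replicate 3 this count fell to 0. It was 2 without Asxl2-/- replicate 3 and 3 without control replicate 2. Calls over all genes also fell from 331 of 14145. In the same sequence they were 16 of 14618, 9 of 14140, 96 of 14748 and 124 of 14871. The part of the B-lineage signal in the Gimap counts was not tested.

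Progenitor programmes gave a mixed picture around the family. Of 15 lymphoid-primed genes 1 was raised (2.04% of all genes), the recombinase gene Rag1 (2.24 ± 0.29, adjusted p = 0.0268). The cytokine receptor gene Il7r differed by 1.39 ± 0.26 (adjusted p = 0.0528) and Tcf3 by -0.32 ± 0.095 (0.108). The lymphoid-primed count was 0 without Asxl2-/- replicate 1, control replicate 2 or control replicate 3. All genes called in these fits were 16 of 14618, 124 of 14871 and 9 of 14140. The lymphoid-primed count was 2 without Asxl2-/- replicate 2 and 4 without control replicate 1, beside 659 of 14103 and 1312 of 14060 genes. Of 15 stem-cell genes 5 were raised (2.04% of all genes), among them Slamf1 (1.52 ± 0.17, adjusted p = 0.0196) and Ctnnal1 (1.71 ± 0.24, 0.0319). The list median was 1.12. The stem-cell count was 0 without Asxl2-/- replicate 1, Asxl2-/- replicate 3, control replicate 2 or control replicate 3. All genes called in these fits were 16 of 14618, 96 of 14748, 124 of 14871 and 9 of 14140. The stem-cell count was 7 without Asxl2-/- replicate 2 (659 of 14103 of all genes) and 8 without control replicate 1 (1312 of 14060). Of 9 tested endothelial markers 0 were called, beside 2.34% of all genes, and their median was 0.94. Sox18 was at 2.47 ± 0.44 (adjusted p = 0.0506), Emcn at 1.66 ± 0.38 (0.0740) and Tie1 at 1.09 ± 0.27 (0.0837). Summed endothelial CPM was 263 to 330 in Asxl2-/- and 188 to 325 in control libraries, and its part in the Gimap counts was not tested. Most of this sum came from Eng, Egfl7 and Tie1 (118, 78.2 and 52.5 of 277 CPM in Asxl2-/- replicate 1). Cdh5 had 6 to 31 counts in a library, Cldn5 at most 3 and Sox17 at most 1.

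Of 17 genes that work with the family at cell survival and autophagy, 0 were called, beside 2.34% of all genes, and the median was 0.06. Bcl2l1, which protects lymphocytes from death, had a difference of 0.78 ± 0.15 (adjusted p = 0.0552), the death effector Bak1 was -0.59 ± 0.21 (0.145) and the chaperone gene Hspa8 was -0.32 ± 0.11 (0.135). Of 15 genes of lymphocyte quiescence and trafficking, 1 was raised (2.04% of all genes), namely Lef1 (1.92 ± 0.27, adjusted p = 0.0319). Foxo1 had a difference of 0.98 ± 0.21 (adjusted p = 0.0674), and the list median was 0.21. The quiescence count was 0 with scaling by library size only, where 161 of 14145 of all genes were called. It was also 0 without Asxl2-/- replicate 1, Asxl2-/- replicate 3, control replicate 2 or control replicate 3. All genes called there were 16 of 14618, 96 of 14748, 124 of 14871 and 9 of 14140. The quiescence count was 4 without Asxl2-/- replicate 2 and 3 without control replicate 1, beside 659 of 14103 and 1312 of 14060 genes. For all these lists, as for the Gimap genes, the median over all genes tested was 0.00.

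A list of other immune GTPases had fitted differences of the opposite sign to most Gimap genes. It held interferon-inducible guanylate-binding and immunity-related GTPases, together with Gvin1, Mx1 and Mx2, which belong to neither of those families. All 17 listed members had a fitted difference below 0, with a median of -1.20. Of these, 7 had an unadjusted p under 0.05 (12.6% of all genes in that direction). At the adjusted threshold 0 were called, where 0.304% of all genes were lowered. Gbp2 had 57.7 and 193 CPM in the gene-count Asxl2-/- libraries (replicates 1 and 3) beside 829 in their control, and 122 in the exon-count Asxl2-/- library beside 97.3 and 567 in control replicates 1 and 3, a difference of -2.09 ± 0.76 (adjusted p = 0.1503). Gbp6 (-2.33 ± 0.83, adjusted p = 0.144) and Gbp8 (-1.89 ± 0.70, adjusted p = 0.152) had the other 2 smallest p-values. Some members of this list are near-identical in places, Tgtp1 and Tgtp2 above all, so their separate counts are uncertain.

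The order of the libraries by the Gimap genes and by this list was noticed after their values were seen. Summed over the 8 members, Gimap CPM was 212, 176 and 96.1 in Asxl2-/- replicate 1, Asxl2-/- replicate 3 and control replicate 2, and 125, 117 and 90.1 in control replicate 1, Asxl2-/- replicate 2 and control replicate 3. The summed interferon-inducible GTPases in the same sequence were at 688, 1613 and 4254 CPM in gene-count and 756, 947 and 2586 CPM in exon-count files. Of the 8 Gimap genes, 5 followed the order of their own sum in both kinds of file (Gimap8, Gimap6, Gimap1, Gimap5 and Gimap3). Gimap9, Gimap4 and Gimap7 did not. The opposite order to the summed Gimap level, in both kinds of file, was followed by 15 of 17 interferon-inducible GTPases, all but Mx1 and Mx2, beside 4.79% of all genes. Ly6a, whose product Sca-1 was used for the sort and is itself inducible by interferon, followed the opposite order too, with 52.6, 57.6 and 260 CPM and then 40.5, 69.1 and 148 CPM. In these values control replicate 1 lay on the side of Asxl2-/- replicate 2, away from control replicate 3. With 3 libraries per kind of file, genes of 1 programme share any such order, and the part of the interferon response in the Gimap counts was not tested.

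**Figure D4:**
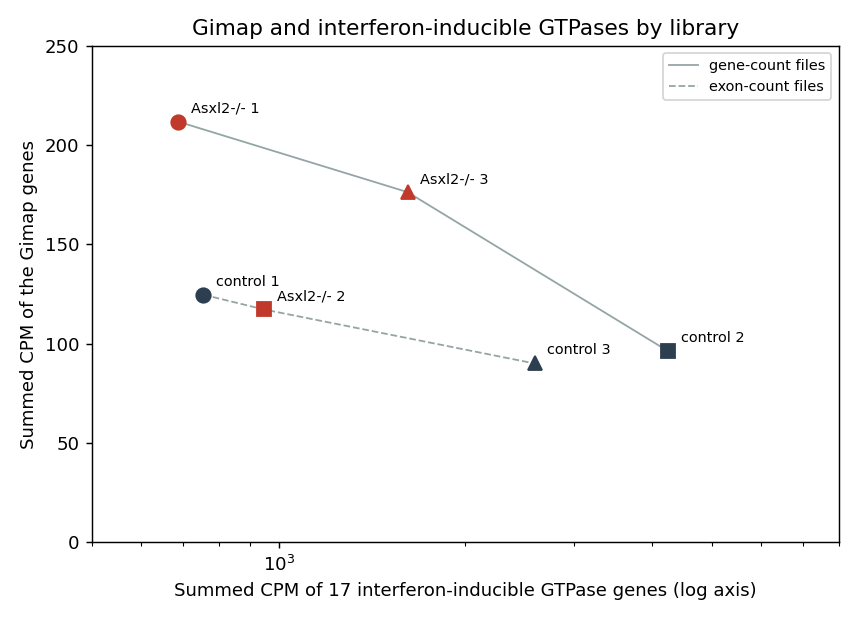
Summed CPM of the Gimap genes against summed CPM of 17 interferon-inducible GTPase genes (log axis), 1 point per library, with lines joining libraries of the same kind of file. Red points are Asxl2-/- and dark points control libraries, and the marker shape gives the replicate number. Gimap sums fall from 212 to 96.1 in gene-count and from 125 to 90.1 in exon-count files as the other sum rises.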

How the data were processed

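Per the labels and the methods, poly(A)-selected, unstranded RNA libraries came from sorted LSK cells of 3 mice per group. The authors deposited raw counts of reads per RefSeq transcript or per exon on the mm10 build, with replicates not pooled. The submitters' processing notes name STAR, featureCounts and DESeq2, without versions, and their roles are not given in the sources used here. The study tested with Cuffdiff, which needs aligned reads.

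Each symbol was represented by the transcript with the longest summed exons, and exon counts were summed. Counts were tested with edgeR 4.0.16 in R 4.3.3 (glmQLFit, glmQLFTest, TMM, filterByExpr, design of file kind plus group, 3 residual degrees of freedom). P-values were two-sided, Benjamini-Hochberg adjusted over the 14145 genes tested, with a threshold of 0.05. SEs came from each fold and its F value, and wherever the text prints a difference with ± and no other word, the error is this SE. Group means are log2 CPM with a prior count of 2. Fits were tested on simulated counts. Levels per kilobase used TMM-scaled CPM. No libraries were duplicates, since the least different pair had a chi-square per degree of freedom of 24.1.

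The rule for named genes took the 8 Gimap genes, the genes within 500 kb, the 3 smallest p-values of each list, the 5 genes most like the Gimap mean, Asxl2 and genes that check sex. A gene that this rule names is not reported here. Genes of the sort gate, others in the order of libraries, and genes that were large or scarce in the endothelial, NK and T-cell sums were added as values. The members and lists were chosen with earlier results of these data known. Alternatives were DESeq2 1.42.0, limma-voom (limma 3.58.1), other scalings and filters, each kind of file alone, the longest exon, the shortest transcript, genes outside X and Y, no file kind, replicate numbers as blocks, and each library left out. Replicate numbers were not taken to pair mice. The reference genome at hand was of another build, so its coordinates were not used, and protein sequences were not analysed here.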

Additional observations from a re-analysis of the deposited data

How the results depend on the processing

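Under 20 alternatives the fitted differences of Gimap8, Gimap6, Gimap5, Gimap4 and Gimap3 stayed above 0 and that of Gimap7 below 0. Gimap1 (0.52) and Gimap9 (0.12) reversed in exon-count files alone (-0.0332 and -0.0652), and with each library left out ranged over -0.0723 to 1.12 and -0.0620 to 0.30, the lowest of each being without control replicate 2. Control replicate 2 is the only gene-count control, so the fit without it is close to exon-count files alone: Gimap8 was 0.22 and 0.27, Gimap5 0.22 and 0.25, Gimap6 0.14 and 0.18, and the median of the family 0.11 and 0.16, beside 0.51 with all libraries. The fit without Asxl2-/- replicate 2 is likewise close to gene-count files alone, with medians of 1.04 and 0.99. In it Gimap6 was called (1.49, edgeR adjusted p = 0.0386), with the lone control assumed to vary like the other libraries, so the count of Gimap genes called ranged from 0 to 1 with each library left out. Library and kind of file cannot be told apart here. Per kilobase, Gimap1 and Gimap9 exchanged ranks 2 and 3 between the kinds of file.

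The replicate number as a block with the file kind called 5 Gimap genes (Gimap8, Gimap4, Gimap6, Gimap1 and Gimap5) and 5179 of all genes (36.6%), in place of 0 and 331. Deviations of same-numbered mice from their group means correlated by 0.29, -0.008 and -0.003, and not every mouse was closest to its own number. The file kind was not removed for this check, and every same-numbered pair mixed a gene-count with an exon-count library. The check therefore cannot decide whether the numbers pair mice.

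Other settings moved the count of all genes, 331, to 2302 with DESeq2, 161 with library size only and 9 to 1312 with each library left out. With DESeq2 the counts called were 2 of 16 flanking, 3 of 17 partner, 2 of 11 NK, 1 of 19 T-cell and 4 of 9 endothelial genes. They were 1 of 17 for interferon GTPase, 5 of 15 for quiescence, 4 of 15 for lymphoid-primed and 9 of 15 for stem-cell genes, all beside 16.3% of all genes. With the block and file kind the counts were 7, 6, 3, 2, 6, 16, 8, 12 and 12 in the same sequence, beside 36.6% of all genes. With each library left out they ranged over 0 to 2, 0 to 1, 0 to 1, 0 to 1, 0 to 3, 0 to 5, 0 to 4, 0 to 4 and 0 to 8, and for B-lineage genes over 0 to 8. Limma-voom gave 1 endothelial, 2 quiescence and 2 lymphoid-primed genes, beside 3.04% of all genes. Library size only gave 4 B-lineage, 0 quiescence and 2 stem-cell genes. The endothelial count was 1 with no filter, with the block without the file kind and with the shortest transcript. The cause of these shifts was not tested.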
